A study of Mus musculus with 60 samples.

Results

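The 10 neuropeptide genes described here are Penk, Pdyn, Npy, Sst, Cck, Tac1, Tac2, Vip, Crh and Cort, taken by name from the 24508 gene rows of the deposited expression table. The list was written by function of the gene product, with earlier results of these data known. Each gene was followed through all 18 RNA-seq libraries. The libraries came from frozen hippocampus of mice aged 30 weeks on a mixed CBA x C57BL/6 background, 9 wild-type (WT) and 9 R6/1, with no treatment named in the labels. In the R6/1 line a fragment of the human huntingtin gene, its first exon with an expanded CAG repeat, is inserted as a transgene beside the intact mouse gene, and the line serves as a model of Huntington's disease. Each library is described as an independent biological replicate. Levels are given in RPKM as deposited, read counts scaled to transcript length and by a factor for each library. That factor did not equal the library's own total of reads on genes. Scaling to that total instead shifted the genotypes against each other, and is given below as an alternative.

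Neuropeptides are made as long precursors, cut by proprotein convertases in dense-core vesicles and released to act on G-protein-coupled receptors. In the hippocampus Sst, Npy, Vip, Cck and Cort mark classes of inhibitory interneuron, Cck is also made by pyramidal cells, and Penk and Pdyn are made by dentate granule cells among others. Transcription of several of these genes is a classic example of control through the cAMP response element (CRE), first described in the somatostatin promoter.

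The libraries held between 12299434 and 16736544 reads on genes, as recovered from the RPKM steps, and no 2 libraries held identical values. Markers of the expected tissue were present: summed RPKM of 6 dentate granule markers ranged from 40.5 to 78.1 in WT and from 20.0 to 25.4 in R6/1, and of 5 CA1 pyramidal markers from 159 to 223 and from 118 to 135. Of the 14446 genes averaging 0.5 RPKM or more over the 18 libraries, 6980 (48.3%) passed an adjusted p of 0.05 in limma, 3394 (23.5%) lower and 3586 (24.8%) higher in R6/1. In 921 genes (6.38%) all 9 R6/1 libraries lay below all 9 WT libraries. The labels name no batch for the RNA libraries.

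The promoters of the members are shown for the CRE, a motif chosen because it is known in several of these genes, so its count is a description. RefSeq promoter windows (GRCm38.p6, 250 bases before to 50 after the start) were found for 8 members, and Penk and Crh had no entry. The full CRE, TGACGTCA, was searched on both strands and lay in the window of Sst alone, 48 bases before the start, against 1.79% of 32851 promoters. The shorter CRE core, TGACG or CGTCA on either strand, which every full CRE contains, lay in 5 members against 20.8% of promoters. The 120 bases before the start of those 5 genes are given 5′ to 3′ on the strand of the gene, with the match in capitals. The windows are chr16:23890845-23890964 (−) for Sst, chr9:121495695-121495814 (−) for Cck, chr6:7554941-7555060 (+) for Tac1, chr10:5639098-5639217 (+) for Vip and chr4:149126764-149126883 (−) for Cort.
Sst: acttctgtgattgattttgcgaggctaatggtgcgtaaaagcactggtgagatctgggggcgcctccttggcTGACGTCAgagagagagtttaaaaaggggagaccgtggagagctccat
Cck: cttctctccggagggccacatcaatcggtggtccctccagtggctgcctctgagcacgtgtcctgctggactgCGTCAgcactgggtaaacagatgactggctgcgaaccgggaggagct
Tac1: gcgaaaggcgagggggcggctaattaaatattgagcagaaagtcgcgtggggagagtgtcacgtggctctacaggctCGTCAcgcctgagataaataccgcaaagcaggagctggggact
Vip: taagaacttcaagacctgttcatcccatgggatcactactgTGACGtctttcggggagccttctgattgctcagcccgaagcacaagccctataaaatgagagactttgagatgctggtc
Cort: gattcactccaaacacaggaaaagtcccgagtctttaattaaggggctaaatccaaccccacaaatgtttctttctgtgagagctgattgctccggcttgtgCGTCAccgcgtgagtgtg
The core lay 47 bases before the start in Cck, 43 in Tac1, 79 in Vip and 18 in Cort, and Tac1 had another match 197 bases before it, outside the window printed. A match is a string of letters and was not tested as a binding site. Of the 5 genes with a match, Sst, Cck and Vip were lower in R6/1 and Tac1 and Cort did not pass the test, as given below.

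All 10 members passed the filter on low values, 8 were lower in R6/1, none was higher, and Tac1 and Cort did not pass. Of all tested genes 23.5% were lower. The median log2 fold change was −1.04 over the 10 members and 0.00 over all tested genes. Because the members were chosen with earlier results of these data known, these counts and medians are a description only. Crh passed the filter through its WT level alone, since its R6/1 mean of 0.281 RPKM lay under 0.5. In 5 members, Penk, Pdyn, Npy, Sst and Cck, all 9 R6/1 libraries lay below all 9 WT libraries, as in 6.38% of all tested genes. Fewer cells of a type and less RNA per cell cannot be told apart in bulk tissue.

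Penk, the precursor of the enkephalins, had the lowest fold change of the members on the log2(RPKM + 0.5) scale. By the ratio of means it kept 31.8% of the WT level, against 28.4% for Tac2 and 31.1% for Crh. The WT mean of Tac2 includes replicates 2 and 5 at 8.44 and 13.0 RPKM. Medians of Tac2 were 2.86 RPKM in WT and 1.17 in R6/1. The level of Penk in WT ran from 12.7 through a median of 15.5 to 21.1 RPKM, and in R6/1 from 3.79 through 5.25 to 6.22 RPKM. Every R6/1 library lay below every WT library, and the mean fell from 16.3 ± 3.09 to 5.19 ± 0.832 RPKM (SD, n = 9 each). On the log2(RPKM + 0.5) scale this was −1.56 ± 0.10 (SE, limma adjusted p = 4.10e-10). The 95% interval leaves 29.2% to 39.5% of the WT value of RPKM + 0.5.

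Pdyn, the precursor of the dynorphins, was lower too. Its WT libraries held 4.89 to 7.90 RPKM with a median of 6.85, and its R6/1 libraries 2.03 to 3.82 with a median of 2.32. The genotypes were apart in every library, by −1.20 ± 0.11 on the log2 scale (SE, limma adjusted p = 3.96e-08). All 6 dentate granule markers were also called lower in R6/1, beside 23.5% of all tested genes. The median log2 fold change of these markers was −1.42, and their part in the result was not tested. Penk, Pdyn and Tac1 are also abundant in the striatum. Of 5 tested striatal markers 2 were called lower, beside the same 23.5%. The striatal list summed to 6.81 to 15.8 RPKM in WT and 6.54 to 9.45 in R6/1, and its part was not tested.

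Npy, neuropeptide Y, which is made by interneurons and dampens excitability, held 35.8 to 56.7 RPKM in WT (median 44.4) and 17.1 to 27.1 in R6/1 (median 19.9). No R6/1 library reached the lowest WT library, and the log2 fold change was −1.10 ± 0.08 (SE, limma adjusted p = 2.68e-09).

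Sst, somatostatin, the peptide of dendrite-targeting interneurons, was one of the 2 most abundant members. WT libraries ran from 152 through a median of 194 to 231 RPKM and R6/1 libraries from 66.5 through 85.1 to 107. The ranges were separate, and the log2 fold change was −1.17 ± 0.09 (SE, limma adjusted p = 3.90e-09).

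Cck, cholecystokinin, was the most abundant member in both genotypes. It held 196 to 275 RPKM in WT (median 230) and 98.6 to 150 in R6/1 (median 120). The groups did not overlap, and the log2 fold change was −0.98 ± 0.08 (SE, limma adjusted p = 2.88e-09), which left 50.8% of the mean WT level. Pyramidal cells also make Cck, and 5 of 5 CA1 markers (median log2 fold change −0.42) and 4 of 4 CA3 markers (−1.03) were called lower. The part of these markers in the result was not tested. Mossy cell, astrocyte and oligodendrocyte markers were called lower too, 4 of 4 in each list, beside 23.5% of all tested genes. Csf2rb2 of the mossy cell list passed the filter through its WT level alone, with an R6/1 mean of 0.422 RPKM. Cortical markers were called lower in 3 of 4, microglia in 2 of 4 and thalamus in 1 of 4. Of the endothelial and choroid plexus markers, 0 of 4 and 0 of 7 were called lower. Calb2 stood in both the mossy cell and the inhibitory subtype list. The spread of Cck between WT libraries was the smallest of the 10 genes, at a coefficient of variation of 9.90%.

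Vip, vasoactive intestinal peptide, marks interneurons that inhibit other interneurons. WT libraries ran from 6.20 through 10.4 to 15.3 RPKM and R6/1 libraries from 4.09 through 5.76 to 6.76. The groups overlapped through 1 WT library, below which 7 of 9 R6/1 libraries lay. The log2 fold change was −0.93 ± 0.13 (SE, limma adjusted p = 7.91e-06).

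Crh, corticotropin-releasing hormone, a stress peptide, was the least abundant member, and its values rest on few reads. WT libraries held 0.433 to 1.67 RPKM (median 0.906) from 9 to 33 reads, and R6/1 libraries 0.130 to 0.461 RPKM (median 0.30) from 3 to 10 reads. The lowest WT library overlapped 1 R6/1 library, and the other 8 R6/1 libraries lay below it. On the log2(RPKM + 0.5) scale the fold change was −0.81 ± 0.14 (SE, limma adjusted p = 8.13e-05), and with a pseudocount of 0.1 it was −1.37. Counting alone gives a coefficient of variation of 41.6% at the R6/1 read numbers, against 39.9% observed.

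Tac1, the precursor of substance P and neurokinin A, did not pass the test. Its WT libraries ran from 2.49 through 4.01 to 6.36 RPKM and its R6/1 libraries from 2.48 through 3.04 to 4.67, and the ranges overlapped widely. The log2 fold change was −0.26 ± 0.14 (SE, limma adjusted p = 0.127). Its 95% interval ran from −0.55 to 0.03, or 68.1% to 102% of the WT value of RPKM + 0.5. Without WT replicate 4 it became −0.34 with an adjusted p of 0.0408, and with the activity-regulated genes as a covariate 0.04 with an adjusted p of 0.857.

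Cort, cortistatin, a somatostatin-related peptide that binds the same receptors, was also not called. WT libraries held 1.03 to 3.25 RPKM (median 1.77, 11 to 33 reads) and R6/1 libraries 0.800 to 3.65 (median 1.77, 9 to 34 reads). The 2 ranges covered each other almost fully. The log2 fold change was −0.03 ± 0.19 (SE, limma adjusted p = 0.915), and the 95% interval, from −0.42 to 0.36, leaves 74.6% to 129% of the WT level.

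**Figure D1:**
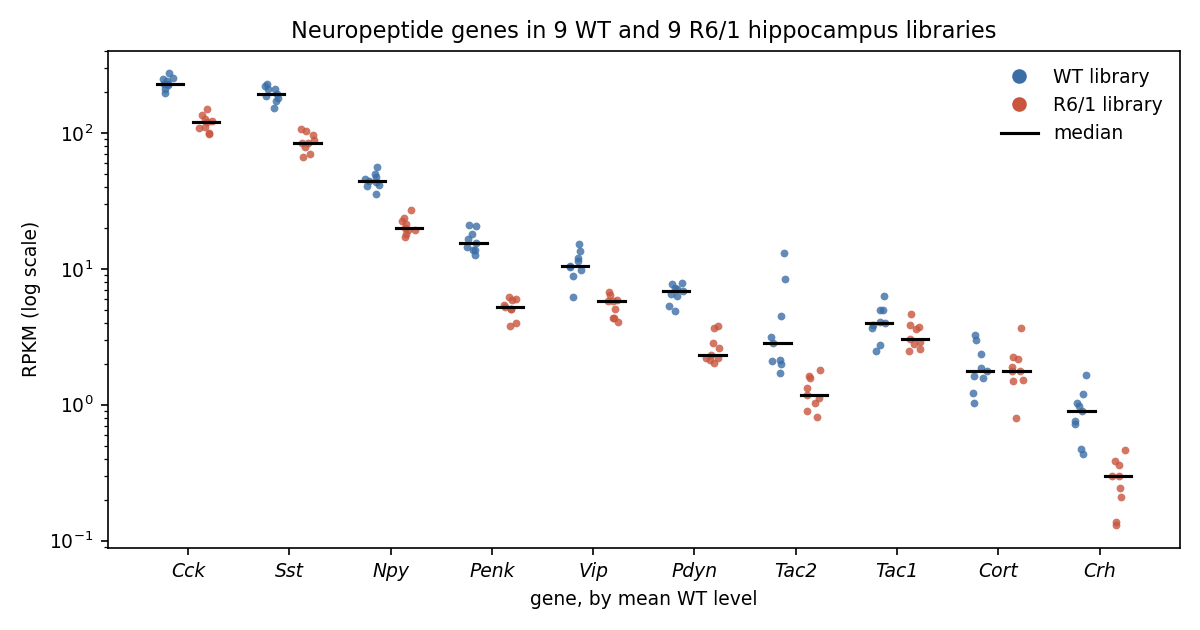
RPKM on a log axis of the 10 neuropeptide genes, ordered by mean WT level; each point is 1 library (9 WT, 9 R6/1) and the black line is the median. Penk, Pdyn, Npy, Sst and Cck are apart in all libraries, Tac1 and Cort overlap, and Tac2 has 2 WT libraries, at 8.44 and 13.0, far above the rest.

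Tac2, the precursor of neurokinin B, was lower but with an unusual spread. Its WT libraries ran from 1.72 through 2.86 to 13.0 RPKM and its R6/1 libraries from 0.812 through 1.17 to 1.79. WT replicates 2 and 5 held 8.44 and 13.0 RPKM, against 1.72 to 4.48 in the other 7, and 8 of 9 R6/1 libraries lay below the lowest WT library. The log2 fold change was −1.22 ± 0.28 (SE, limma adjusted p = 0.00133), and −0.81 with an adjusted p of 0.000374 without those 2 libraries. Markers of the medial habenula, a nucleus next to the hippocampus, stood apart in the same 2 libraries: Gpr151 held 3.51 and 5.15 RPKM there and 0.393 to 0.914 in the other 7 WT libraries. Chrnb4 held 1.32 and 2.30 RPKM against 0.214 to 0.457, and Chrna3 1.86 and 2.78 against 0.189 to 0.754. Of the 5 listed markers Pou4f1 was called higher, Nwd2 lower and Gpr151 not called, and the others were too low to test. Pou4f1 passed the filter through its R6/1 level alone, with a WT mean of 0.209 RPKM. The sum of the 5 ran from 5.95 to 19.5 RPKM in WT and from 5.97 to 7.66 in R6/1. Pou4f1 stood apart in the same 2 WT libraries, at 0.614 and 1.07 RPKM against at most 0.146 in the other 7, but unlike the 3 markers above it was also high in R6/1, at 0.804 to 1.94 RPKM. The 8 activity-regulated genes summed to 293 and 288 RPKM in those 2 libraries and to between 103 and 274 in the other 7, the highest of these being WT replicate 8. Of these 8 genes 6 were themselves called lower in R6/1 (median log2 fold change −0.67), beside 23.5% of all tested genes. A covariate made from these 8 genes therefore moves with genotype. With their mean as a covariate, Tac2 was −0.50 with a limma adjusted p of 0.151. The habenula covariate was the mean of Gpr151, Chrnb4 and Chrna3 only, without Pou4f1 and Nwd2. With that covariate Tac2 was −0.74 with a limma adjusted p of 0.00284.

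**Figure D2:**
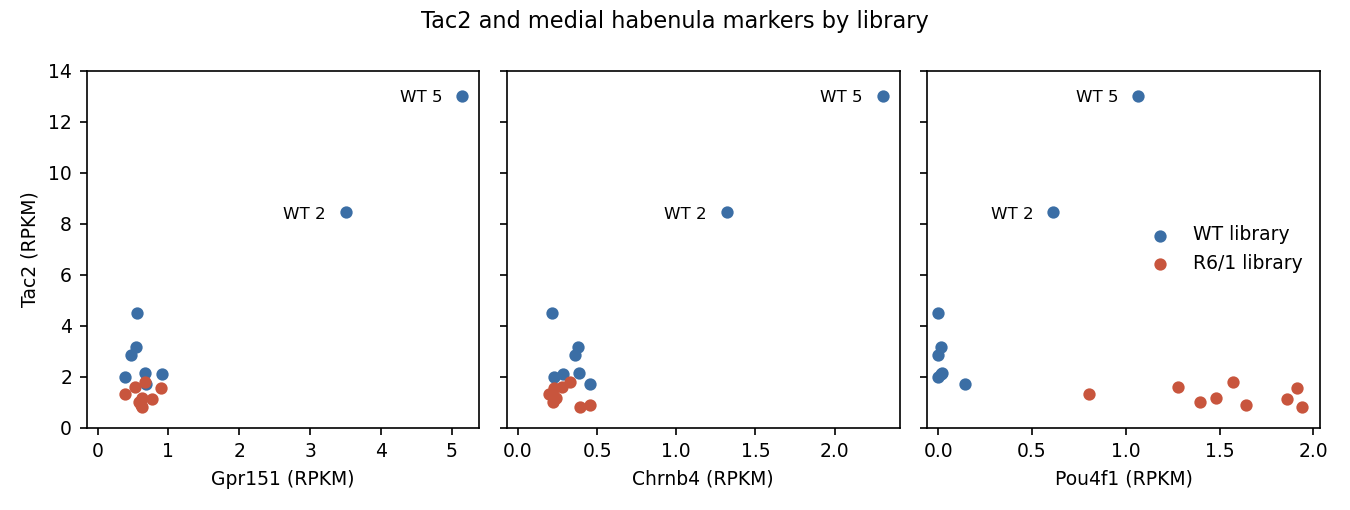
Tac2 RPKM (y) against RPKM of the habenula markers Gpr151, Chrnb4 and Pou4f1 (x); each point is 1 of 18 libraries. WT replicates 2 and 5 are high for Tac2, Gpr151 and Chrnb4, while Pou4f1 is highest in R6/1 libraries with low Tac2.

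The order of the levels changed between genotypes. In WT it ran Cck, Sst, Npy, Penk, Vip, Pdyn, Tac2, Tac1, Cort, Crh, and in R6/1 Cck, Sst, Npy, Vip, Penk, Tac1, Pdyn, Cort, Tac2, Crh. This order is by mean: Tac2 was above Tac1 in 4 of 9 WT libraries only, and the WT medians run the other way, 2.86 and 4.01 RPKM. Cck and Sst overlapped in both genotypes, although Cck was above Sst in all 9 libraries of each. Npy stood apart from its neighbours in both. Penk exceeded Vip in 8 of 9 WT libraries, whereas Vip exceeded Penk in 5 of 9 R6/1 libraries. Summed over the 10 genes, the level ran from 456 to 597 RPKM in WT and from 217 to 299 in R6/1, with no overlap. Of the sum, Cck made up 45.1% ± 3.18 (WT) and 48.2% ± 4.46 (R6/1; SD over 9 libraries), and Penk 3.18% ± 0.797 and 2.11% ± 0.316.

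The members did not all change by the same amount. In each library the log2 ratio of every 2 members was taken, and the 45 ratios were compared between genotypes by an exact permutation test over the 9 against 9 libraries, two-sided and adjusted over the 45 pairs. The ratio differed in 23 pairs. Penk fell relative to 7 of the 9 other members, for example by 0.58 on the log2 scale against Cck (adjusted p = 0.00228, exact permutation), and not against Sst (−0.38, adjusted p = 0.0743, exact permutation) or Tac2 (−0.33, adjusted p = 0.499, exact permutation). Tac1 and Cort each rose relative to the same 8 members: the Sst to Cort ratio changed by −1.14 and the Sst to Tac1 ratio by −0.91 (adjusted p = 0.000617 for both, exact permutation). The Tac1 to Cort ratio changed by −0.23 (adjusted p = 0.312, exact permutation). With a pseudocount of 0.1, 21 pairs passed, with Penk against Sst among them. Penk against Pdyn (adjusted p = 0.0614, exact permutation) and against Crh no longer passed. The Npy to Crh and Sst to Crh ratios, at −0.28 and −0.36 among the 23 pairs (adjusted p = 0.0433 for both, exact permutation), changed sign. With a pseudocount of 0.1 they were 0.25 and 0.19 and did not pass (adjusted p = 0.331 and 0.497, exact permutation). Without WT replicates 2 and 5, 26 pairs passed. Penk then fell against Sst (adjusted p = 0.0179, exact permutation) and Tac2 (adjusted p = 0.00694, exact permutation) as well.

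**Figure D3:**
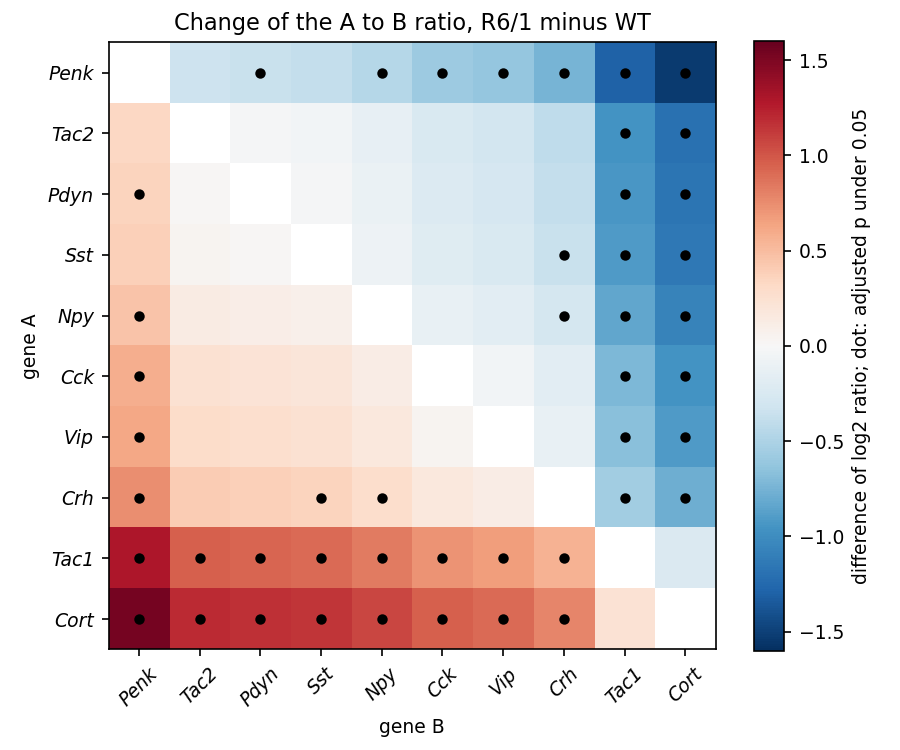
Change of the log2 ratio of gene A (row) to gene B (column) between genotypes, blue where A fell relative to B; dots mark the 23 pairs with an adjusted p under 0.05. The Penk row is blue and the Tac1 and Cort rows are red against the other 8 genes.

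The inhibitory neuron markers give a reference for genes made by interneurons. Penk and Pdyn are made by dentate granule cells among others and Cck also by pyramidal cells, so for them this reference is partial. Gad1 and Gad2, the enzymes that make GABA, were called lower by less, from 93.2 ± 7.05 to 80.4 ± 6.42 RPKM and from 31.7 ± 2.04 to 25.8 ± 2.39 RPKM (SD, n = 9 each). Slc32a1, the vesicular GABA transporter, was not called at 24.4 ± 2.01 RPKM in WT and 25.1 ± 2.93 in R6/1. The level of every tested gene was taken relative to the mean of these 3 markers and compared by exact permutation, with p adjusted over all tested genes. The same 8 members were lower, with changes from −1.40 for Penk to −0.66 for Crh, as were 9.85% of all tested genes. Subtracting the marker mean shifted every log2 change by the same amount, Penk from −1.56 and Crh from −0.81. The direction of these 8 changes was therefore not independent of the limma test above. Crh counts among the 8 although it passed the filter through its WT level alone. For Penk, Pdyn, Npy, Sst and Cck the unadjusted p was 4.11e-05, the smallest this exact permutation test can give. Tac1 was −0.11 (adjusted p = 0.580, exact permutation) and Cort 0.13 (adjusted p = 0.640, exact permutation). Of 8 markers of inhibitory subtypes, 6 were also called lower by limma, with a median log2 fold change of −0.41, beside 23.5% of all tested genes. The part of these subtype markers in the result was not tested.

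**Figure D4:**
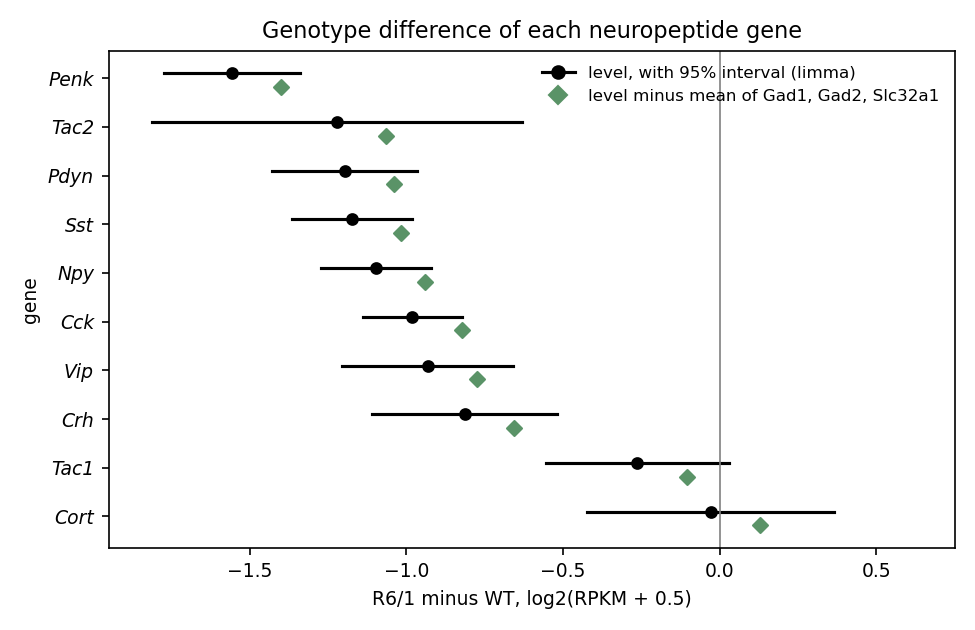
R6/1 minus WT on the log2(RPKM + 0.5) scale for the 10 genes (black, with 95% interval) and for each gene minus the mean of Gad1, Gad2 and Slc32a1 (green). Intervals of the 8 called genes lie below 0, and those of Tac1 and Cort include it.

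The receptors and binding proteins of these peptides were read from a list of 23 genes, of which 16 could be tested, and 1 was higher, 8 lower and 7 not called (median log2 fold change −0.26), where 24.8% of all tested genes were higher and 23.5% lower. Npy2r, the presynaptic neuropeptide Y receptor, fell from 21.5 ± 6.73 to 7.66 ± 1.71 RPKM (SD, n = 9 each), a log2 change of −1.40 ± 0.16 (limma adjusted p = 5.93e-07). Crhbp, which binds and sequesters corticotropin-releasing hormone, fell from 12 ± 1.83 to 4.95 ± 1.20 RPKM, and Sstr4, a somatostatin receptor, from 12.5 ± 1.62 to 6.44 ± 1.03. Sstr1 was the one gene higher, from 6.93 ± 2.04 to 10.7 ± 1.17 RPKM (0.62 ± 0.13, limma adjusted p = 0.000388), so the somatostatin receptors did not move together. Among the remaining receptors Oprd1, the enkephalin-preferring opioid receptor, changed by −0.67, Crhr1 by −0.54, Vipr1 by −0.41, Npy5r by −0.36 and Adcyap1r1 by −0.17. Npy1r, Sstr2, Sstr3, Cckbr, Tacr1, Tacr3 and Crhr2 were not called, with changes between −0.46 for Cckbr and 0.01 for Sstr2. Oprk1, the dynorphin receptor, was too low to be tested, at 0.401 RPKM in WT and 0.221 in R6/1.

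**Figure D5:**
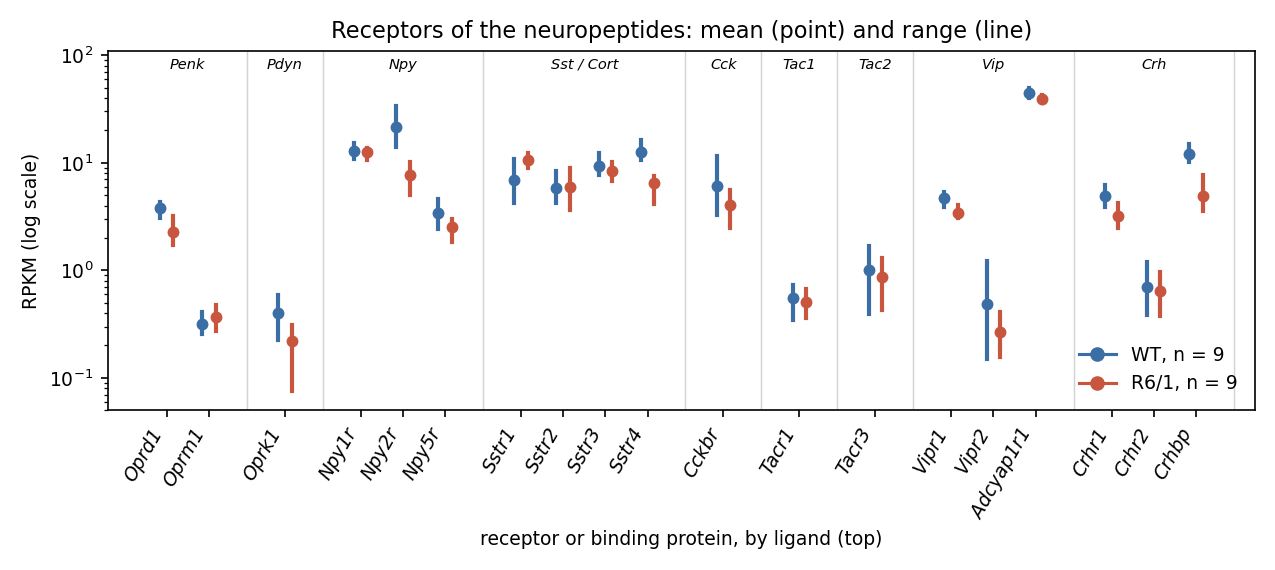
RPKM on a log axis of receptors and binding proteins grouped by their peptide (top); points are means and lines the range of 9 libraries per genotype. Npy2r, Sstr4 and Crhbp are apart, and Sstr1 is the one gene whose R6/1 mean, 10.7, is called higher than its WT mean, 6.93.

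Of 16 listed genes that cut and pack peptides, 5 were lower, 3 higher and 8 not called (median log2 fold change −0.02), shares near the 23.5% and 24.8% of all tested genes. Chgb, chromogranin B of dense-core vesicles, fell from 250 ± 30.4 to 114 ± 5.40 RPKM (−1.12 ± 0.06, limma adjusted p = 1.34e-11). Pcsk2, a convertase, changed by −0.42 and Cpe, carboxypeptidase E, by −0.39, whereas Pcsk1n, an inhibitor of a convertase, changed by 0.29, Qpct by 0.25 and Pam, the amidating enzyme, by 0.15. Pcsk1, the other main convertase, was not called, with a log2 change of −0.08. Under quantile normalization and under scaling to each library's own total, 5 of these genes were called higher.

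A further list held 42 peptide hormone genes, of which 17 were high enough to test, and 8 were lower, 3 higher and 6 not called (median log2 fold change −0.17), again beside 23.5% lower and 24.8% higher among all tested genes. Nppc, the C-type natriuretic peptide, changed by −1.09, Cartpt by −0.79 and Edn3 by −0.75. Nts, neurotensin, rose from 3.75 ± 1.30 to 7.09 ± 1.23 RPKM (0.89 ± 0.16, limma adjusted p = 0.000136), and Adm changed by 0.51 and Rln1 by 0.39. The count of genes higher was 1 without WT replicate 2, without R6/1 replicate 2 or without R6/1 replicate 4.

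Within a genotype the members were compared between libraries over 45 pairs, 90 correlations in all. By the exact permutation of Pearson's r none passed after adjustment, 14 had an unadjusted p under 0.05, and by Spearman's rho 6 did. The strongest was Sst with Cort in WT, r = 0.879 (exact permutation p = 0.00179, adjusted p = 0.161) and rho = 0.933 (exact permutation p = 0.000750, adjusted p = 0.0675). It was 0.871 without the 2 libraries farthest from the median of Sst.

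The genes with the most similar pattern over the 18 libraries, after each library's value was taken relative to its genotype's mean, are given as a description. For Penk they were Thnsl2, Msl2 and Nup133 (r = 0.813, 0.812 and 0.796), and for Pdyn Rnf139, Xk and Cdyl (0.810, 0.796 and 0.764). For Npy they were Pcsk1, March3 and Sytl1 (0.804, 0.798 and 0.778), for Sst Kctd8, Mvp and Lhx6 (0.806, 0.770 and 0.747), and for Cck Svop, Slc25a14 and Spryd3 (0.852, 0.843 and 0.836). Lhx6 is a transcription factor of interneurons that include the somatostatin class. For Tac1 they were Resp18, Adgra1 and 2310022A10Rik (0.816, 0.777 and 0.757), for Tac2 Cyr61, Syt6 and Btg2 (0.892, 0.855 and 0.839), and for Vip Washc3, Wdr13 and Mir6972 (0.749, 0.738 and 0.721). For Crh they were Prkar1b, Sult4a1 and Dtnbp1 (0.877, 0.860 and 0.850), and for Cort Pcsk1, C77080 and Crhbp (0.826, 0.806 and 0.780). The points share library depth and dissection, and the leading genes were the highest of all tested genes.

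Lamin B1 ties heterochromatin to the nuclear envelope, and the study also mapped lamin B1 domains by ChIP-seq of hippocampus, deposited as 1 list per genotype (145 domains in WT, 166 in R6/1) with borders in steps of 37 kb. With no replicate lists the positions are a description, on build NCBIM37 (mm9). The starts of 4 members, Penk, Tac1, Vip and Crh, lay in a WT domain, and of Tac1 and Crh in an R6/1 domain, against 13.0% and 7.99% of tested genes. Penk (chr4:4060678-4065966) lay 1.03 Mb inside a WT domain of 5.25 Mb that has no counterpart in the R6/1 list, the nearest R6/1 domain being 9.73 Mb away. Of the 14 tested genes in that domain, 5 were higher, 4 lower and 5 not called in R6/1, and Penk had the lowest fold change. The start of Vip (chr10:4698927-4707323) was taken at its minus-strand end, whereas the promoter window above has Vip on the plus strand. That minus-strand start lay 0.029 Mb inside the border of a WT domain and 0.008 Mb outside an R6/1 domain, both less than 1 step. The difference of strand was not resolved. With 1 alternative, the members in an R6/1 domain numbered 2 to 3. Tac1 (chr6:7505071-7512973) and Crh (chr3:19593401-19595396) lay in domains of both lists. Pdyn, Npy, Sst, Cck, Tac2 and Cort lay in neither, between 1.21 Mb for Tac2 and 27.1 Mb for Cck from the nearest WT domain. Penk overlaps the non-coding gene A830012C17Rik on the opposite strand, and whether the authors counted by strand is not given in the sources used here.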

How the data were processed

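RNA was measured in 9 WT and 9 R6/1 hippocampus libraries, which the labels describe as stranded mRNA libraries of independent replicates. One deposited table holds RPKM per gene and library, and another the authors' DESeq2 columns (mean normalized count, log2 fold change with its error, and adjusted p-value). Per the submitters' processing notes, TopHat and DESeq2 were used on build mm9; the counter and annotation are not given in the sources used here. The deposited lamin B1 domain lists hold a score per domain from the authors, which was not used. Reads per gene were recovered from the RPKM steps and the deposited mean counts: 99.89% to 99.92% of values came out whole within 0.05. Library totals ran from 12299434 to 16736544 reads, which sets the precision of low genes such as Crh.

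From the RPKM values, limma 3.58.1 (R 4.3.3; lmFit, eBayes with trend) was run on log2(RPKM + 0.5) on the 14446 genes averaging 0.5 RPKM or more, p-values were adjusted by Benjamini-Hochberg, and 0.05 was the threshold. A fold change on this scale understates the change of low genes. Ratios and correlations were tested by exact permutation with scipy 1.17.1 and numpy 2.4.6. Alternatives covered pseudocounts of 0.1 and 1, filters of none and 2 RPKM, scaling, covariates, the replicate number as a block, and leaving out each library. Named genes are all 10 members, up to 3 called genes per direction from each further list, and the 3 most similar genes per member; the further receptors, Pcsk1 and the single marker genes were named after their values were seen. The members and lists were chosen with earlier results of these data known. The ATAC-seq samples and the read-level ChIP data are not analysed here. The script was tested on simulated data.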

Additional observations from a re-analysis of the deposited data

Results flagged for a closer look

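Of the 20 groups of 9 libraries (10 genes in 2 genotypes), 1 had a library set apart from the others by Dixon's test, where chance gives about 1 in 20 groups. Cort in R6/1 replicate 7 held 3.65 RPKM from 34 reads, and the next highest R6/1 library held 2.24 RPKM.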

How the results depend on the processing

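The 8 members lower in R6/1 numbered 7 to 9 over 35 alternatives, and 8 to 9 when 1 library was left out; none was called higher. The fold changes of Penk, Pdyn, Npy, Sst, Cck, Vip and Crh kept their direction and their call in every alternative that tested them. Cort, never called, changed sign: its log2 fold change was 0.0233 under quantile normalization, 0.0283 under each library's own total of reads, 0.14 with the activity covariate, 0.0492 with the habenula covariate and 0.066 without WT replicates 2 and 5, and leaving out 1 library gave −0.13 to 0.0758 (above 0 without WT replicates 2, 3 or 9 or R6/1 replicate 9). Tac1 was 0.04 with the activity covariate. Relative to inhibitory markers, Tac1 was 0.0307 with Gad2 alone and 0.0391 without WT replicates 2 and 5, and Cort was −0.0621 with Slc32a1 alone. Tac2 lost its call with the activity covariate (−0.50, adjusted p = 0.151) and Tac1 gained one without WT replicate 4 (−0.34). Receptors called higher were 2 with no filter on low values. Other peptide genes called lower were 13 with no filter and 3 with a filter of 2 RPKM; those called higher were 1 with that filter, with the activity or the habenula covariate and without WT replicates 2 and 5, and 1 to 3 when 1 library was left out. Processing genes called higher were 5 under quantile normalization and under own totals. For these changes the cause was not tested, apart from the filters, which change how many genes are tested. Own totals moved the median of all genes to 0.07 and the share of calls that were higher from 51.4% to 66.9%. The habenula covariate and the setting without WT replicates 2 and 5 were chosen after seeing the data, as were the ratio tests of member pairs and the adjustment of the relative levels over all tested genes. Replicate numbers do not pair the genotypes (same-number correlation −0.05 to 0.24, over 0.1 in 3 of 9, own number best in 2 of 9); with the replicate block Penk was −1.56, and the members called lower numbered 8. By the authors' deposited table the same 8 members passed, with Tac1 at an adjusted p of 0.112 and Cort at 0.935. In R6/1 the median library held 6 reads of Crh, 16 of Tac2 and 21 of Cort, which limits their precision.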
